A study of Mus musculus with 15 samples.

Results

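Collagen genes were taken as all genes whose symbol on the array is Col, a number, the letter a and a number, such as Col1a1. The array measured 42 of them, out of 18193 genes in all. A further 2 genes of this naming, Col6a6 and Col28a1, are in RefSeq and were not analysed here. Of the 42, 15 genes had 1 probe set, a group of short probes for one transcript, and 27 had several. Each gene was read through its brightest probe set, the one with the highest mean over all arrays. The series measured messenger RNA of 15 mouse cell lines on Affymetrix mouse expression arrays, 1 array per line. The labels give 3 lines the genotype AP and 12 the genotype AKP, and do not spell out the letters or name a tissue. The series title speaks of genetically engineered mouse models. All lines grew untreated in DMEM with 10% FBS, so medium and the absence of treatment were shared by both groups, and no age is given. The labels call all 3 AP lines and 11 AKP lines tumour, and AKP 6 adenoma, a benign growth. They mark 10 lines female, of which 1 is an AP line (AP 3), and 5 male. The series' design text speaks of 10 AKP lines, and the value table holds 12. Each line was measured once, so every test below rests on the spread among lines of a group, and only 3 lines stand for AP.

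Collagens are the main structural proteins of the extracellular matrix. Their chains wind into a triple helix inside the cell and are trimmed and crosslinked outside it. The fibrillar types I, III and V form the ropes of connective tissue and come mostly from fibroblasts and other mesenchymal cells. Type IV forms the sheet under epithelia and around vessels, the basement membrane. Type VI forms beaded filaments, and type VII anchors basement membranes to the tissue beneath. The FACIT collagens, such as XII and XIV, coat fibrils. In carcinomas most fibrillar collagen is known to come from fibroblasts of the stroma.

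All levels below are log2 values as deposited, in which 1 unit is a doubling of the signal. Between 31.3% and 34.3% of the single-gene probe sets of an array lay below 3, close to the lowest values the table holds and called the floor here, and the table has no detection calls. A level of 8 serves here as a mark far above that floor. Probe sets differ in how strongly they respond, so levels were compared between lines and not between genes. The arrays resembled each other over all genes, with correlations between 0.874 and 0.980. AP 1 and AKP 1 stood apart, with median correlations to the other lines of 0.892 and 0.922 against 0.936 to 0.966 in the remaining 13 lines, and were each other's closest line at 0.937. Differences that moved by over 1.5 times when both were left out are given with and without them.

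Collagen expression was uneven across the lines. AP 1 had 17 collagen genes at 8 or more, AP 2 had 12 and AP 3 had 10. Among AKP lines the count ran from 4 in AKP 7 to 15 in AKP 1, with a median of 7, and AKP 8 was the next highest at 12. Over all genes the share at 8 or more varied only from 40.7% to 44.7% between lines. AP 1 and AKP 1 each had 10 collagen genes at 12 or more and AKP 8 had 7, while no other line had more than 3. AP 1 was the highest of all lines for 12 of the 21 collagen genes that reached 8 anywhere.

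**Figure D1:**
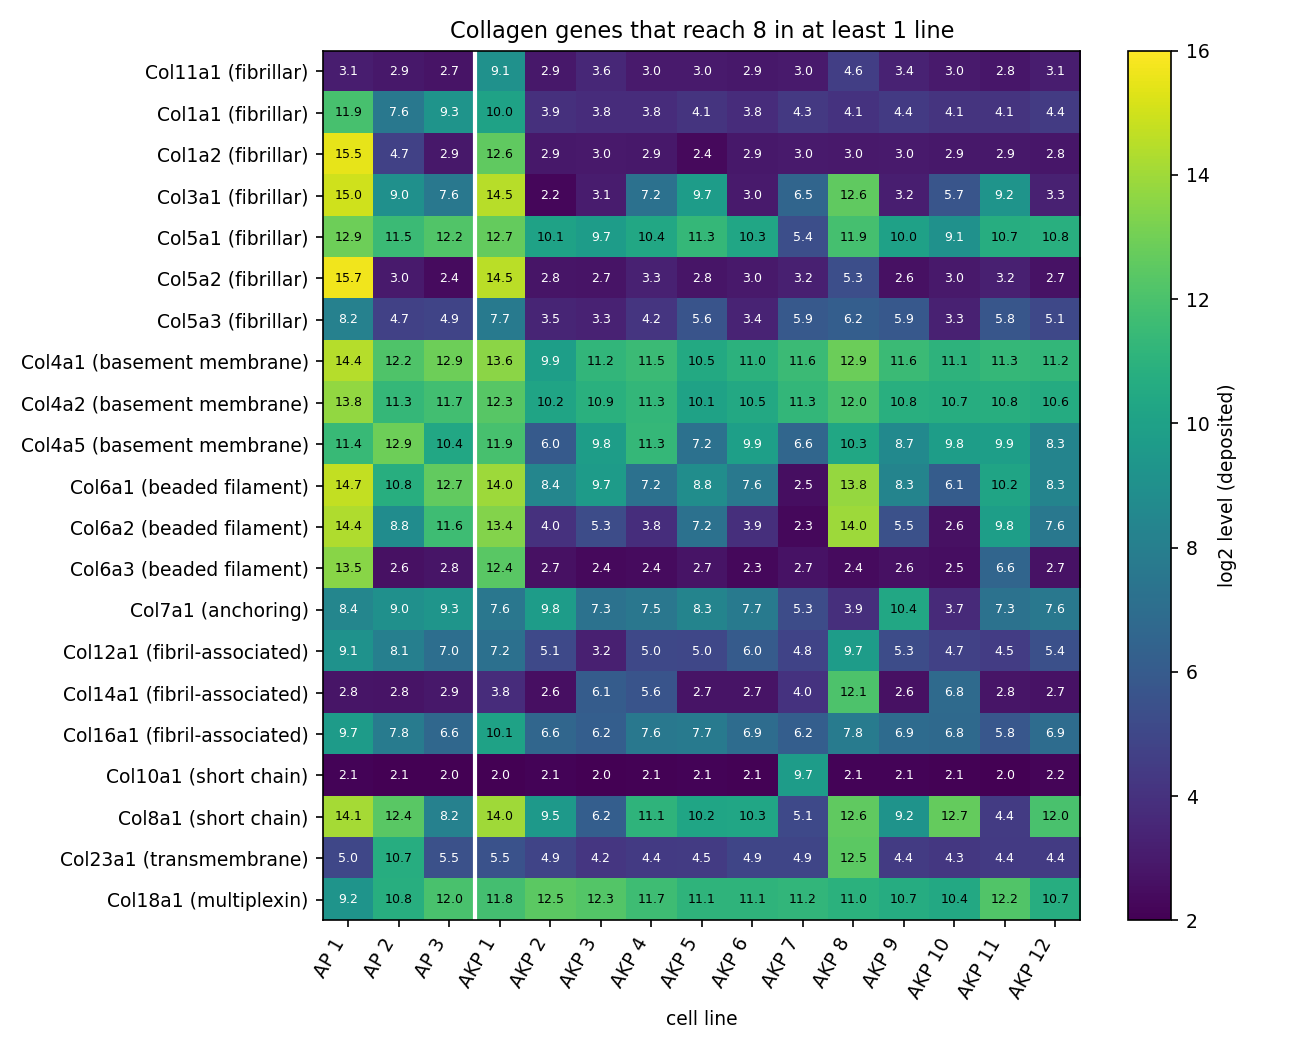
Log2 level of the 21 collagen genes that reached 8 in at least 1 line (vertical axis, with the class of each gene) in the 15 lines (horizontal axis); colour and printed value give the level. AP 1 and AKP 1 have the most genes at 8 or more, 17 and 15, followed by AP 2 and AKP 8 with 12 each.

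Of the 42 collagen genes, 21 reached 8 in at least 1 line, against 55.8% of all genes. Only Col4a1, Col4a2 and Col18a1 did so in all 15 lines, against 31.5% of all genes, which leaves 18 collagen genes that reached 8 in some lines and not in others. A spread of 6 or more between the lowest and the highest line was found for 16 collagen genes, against 8.46% of all genes. The widest spreads belonged to Col5a2, Col1a2, Col3a1, Col6a1, Col6a2, Col6a3, Col8a1 and Col14a1. At the other end, 12 collagen genes stayed below 5 in all lines, among them Col17a1, a transmembrane collagen of epithelial hemidesmosomes, which did not pass 2.61.

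Comparing AKP with AP lines asks which collagen genes go with the genotype label. Type I collagen chain Col1a1 was lower in AKP lines, and it was the only collagen gene past the threshold. Limma with Benjamini-Hochberg adjustment over all genes called 1 of the 42 collagen genes at an adjusted p under 0.05, against 1.9% of all genes, and 1 lower in AKP against 1.1%. None was called higher, against 0.792% of all genes. At an unadjusted p under 0.05, 9 collagen genes were lower in limma, against 9.25% of all genes, and 0 were higher, against 7.27%. The exact permutation test was run on the collagen genes alone, so no share of all genes stands beside it, and gave 6 lower and 0 higher at that level. Without a test, the AKP mean was below the AP mean for 34 of 42 collagen genes, against 47.2% of all genes. With each array centred on its median it was below for 30, against 33.4%. The median difference, AKP minus AP, was -0.73 over the collagen genes and 0.01 over all genes. Without AP 1 and AKP 1 these medians were -0.25 and 0.04, so the shift was smaller without those lines. A mean lower by at least 1 was found for 16 collagen genes (8.28% of all genes) and a mean higher by at least 1 for Col14a1 alone (6.51% of all genes). No collagen gene had all AKP lines below all AP lines, against 1.18% of all genes, and none had all of them above, against 0.951%. In these bulk samples, fewer cells of a type and less RNA per cell cannot be told apart.

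**Figure D2:**
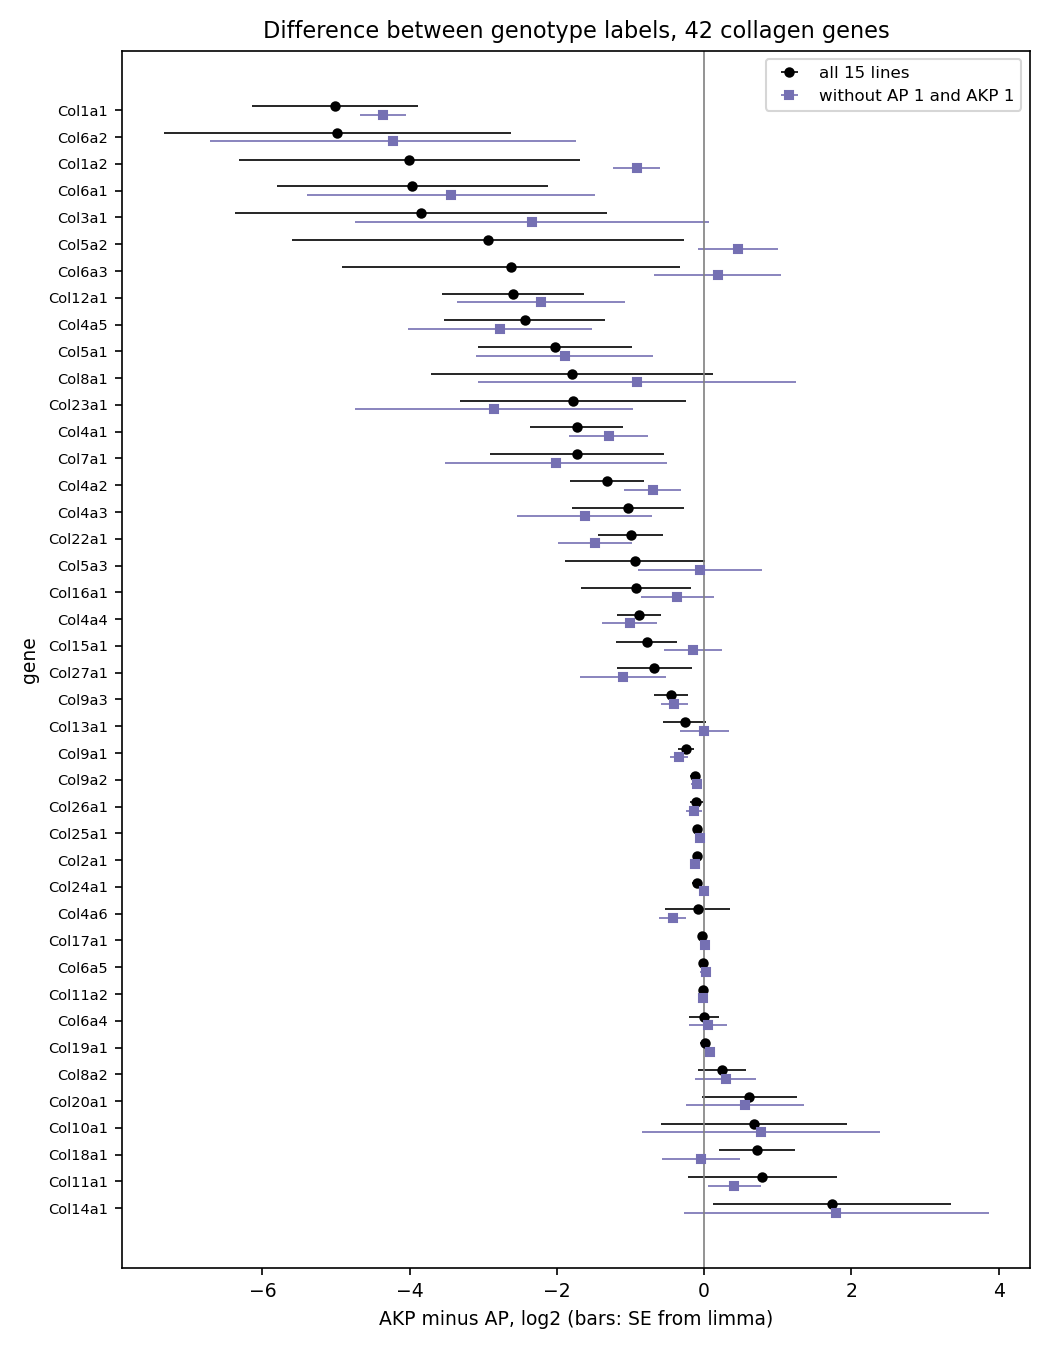
Mean difference AKP minus AP in log2 units (horizontal axis, bars are limma standard errors) for the 42 collagen genes (vertical axis), over all 15 lines (circles) and without AP 1 and AKP 1 (squares). Most of the collagen genes lie left of 0; Col1a1 is at -5.02 over all lines and -4.36 without the 2 lines, while Col5a2 goes from -2.94 to 0.46.

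The fibrillar class held 11 genes, 7 of which reached 8. The AKP mean was lower for 10 of the 11, 1 of them called, and the median difference was -0.94 (-0.12 without AP 1 and AKP 1). Col1a1 encodes the main chain of type I collagen, the bulk protein of tendon, skin and bone. It read 11.90 in AP 1, 7.59 in AP 2 and 9.27 in AP 3. In AKP lines the lowest value was 3.78, the median 4.10 and the highest 10.05, in AKP 1. All AP lines were thus above 11 of 12 AKP lines, and AKP 1 lay among the AP lines. The difference was -5.02 ± 1.13 (SE; limma adjusted p = 0.0395), a 32.4-fold lower level in AKP lines, with an exact two-sided permutation p of 0.0132 (3 against 12 lines). Without AP 1 and AKP 1 it was -4.36 ± 0.31 with an adjusted p of 7.46e-06 in limma. These lines were chosen after the data were seen, and AP 2 and AP 3 alone then stood for AP. AKP 1 was the only AKP line above any AP line, so the spread among AKP lines shrank without it. In that fit limma again called 1 collagen gene, against 2.76% of all genes, and none higher in AKP, against 0.934%. Leaving out single lines ended the call in 12 of 15 cases. Without AP 1 the difference was -3.86 (adjusted p = 0.137 in limma) and without AP 3 it was -5.18 (adjusted p = 0.114 in limma). Without any 1 of AKP 2, 3, 4, 5, 6, 7, 9, 10, 11 or 12 it stayed between -5.00 and -4.94, with limma adjusted p between 0.057 and 0.0658. Without AKP 1 the adjusted p fell to 0.000296 in limma, and without AKP 8 it was 0.0418. With the sex label as a covariate the adjusted p was 0.0562 in limma, with array weights 0.113, and with the replicate number as a block 0.371. AKP 4 to AKP 12 share their number with no AP line. The block fit thus compared only AP 1 to AP 3 with AKP 1 to AKP 3. The other probe set of Col1a1 placed the same lines high, at 13.95, 6.85 and 8.82 in AP 1 to AP 3 and 12.70 in AKP 1, with the remaining AKP lines at or below 4.20. Its difference was -6.16 ± 1.90 (limma adjusted p = 0.129 over all single probe sets).

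Col1a2 encodes the partner chain of Col1a1, and Col3a1 the chain of type III collagen, which often shares fibrils with type I. Both were high in AP 1 and AKP 1, and their promoter windows are printed because these genes were high in the same lines. The windows run from 250 bases before to 50 after the annotated start, from RefSeq on GRCm38.p6, 5′ to 3′ on the strand of the gene. Capitals mark 3 short motifs, searched on both strands: the CCAAT box, the TATAAA form of the TATA box, and GGGCGG, the core of a GC box. The Col1a2 window is chr6:4505368-4505667, plus strand, and the Col3a1 window is chr1:45311288-45311587, plus strand.
Col1a2: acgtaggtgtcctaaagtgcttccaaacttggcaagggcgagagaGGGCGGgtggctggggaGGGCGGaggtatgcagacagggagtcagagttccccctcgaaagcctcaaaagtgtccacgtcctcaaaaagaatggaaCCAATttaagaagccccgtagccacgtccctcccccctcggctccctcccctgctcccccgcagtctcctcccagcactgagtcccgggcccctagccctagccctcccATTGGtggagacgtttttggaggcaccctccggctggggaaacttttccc
Col3a1: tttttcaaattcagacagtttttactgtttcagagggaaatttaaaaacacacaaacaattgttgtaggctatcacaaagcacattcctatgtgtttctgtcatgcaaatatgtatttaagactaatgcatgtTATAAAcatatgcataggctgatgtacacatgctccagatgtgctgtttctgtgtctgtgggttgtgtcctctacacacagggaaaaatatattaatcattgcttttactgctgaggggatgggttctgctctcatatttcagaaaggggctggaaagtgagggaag
Col1a2 held CCAAT at 2 places and GGGCGG at 2, and Col3a1 held TATAAA once. No motif overlapped another in these windows. Of 32851 mouse promoter windows of the same length, 37.4% held the CCAAT box on either strand, 13.6% the TATAAA form and 35.7% the GGGCGG core. Of the 36 windows found for 33 of the collagen genes, 13 held the CCAAT box, 5 the TATAAA form and 22 the GGGCGG core. A match is a description of letters and not of a bound site.

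Col1a2 read 15.49 in AP 1, 4.72 in AP 2 and 2.88 in AP 3, and 12.60 in AKP 1. The other 11 AKP lines did not pass 3.02. Only AP 1 and AKP 1 were thus clear of the floor by a wide margin. In the probe set used, AP 3 was on the floor for Col1a2, while it was high for Col1a1. The difference was -4.01 ± 2.32 (limma adjusted p = 0.42), and -0.92 ± 0.32 without AP 1 and AKP 1 (limma adjusted p = 0.16). A second probe set read Col1a2 at 14.74, 3.49 and 3.90 in AP 1 to AP 3 and at 9.98 in AKP 1. The other AKP lines did not pass 2.64 there, so 11 AKP lines lay below all AP lines. Its difference was -4.41 ± 2.01 (limma adjusted p = 0.298 over single probe sets). Col3a1 read 14.98, 9.02 and 7.61 in AP 1 to AP 3. In AKP lines it ran from 2.22 over a median of 6.11 to 14.50 in AKP 1, followed by AKP 8 at 12.57, AKP 5 at 9.71 and AKP 11 at 9.24. The groups overlapped in these 4 AKP lines. The difference was -3.85 ± 2.52 (limma adjusted p = 0.489), and -2.34 ± 2.41 without AP 1 and AKP 1 (limma adjusted p = 0.646). Its other probe set kept AP 1, AKP 1 and AKP 8 high, at 12.08, 10.39 and 9.26. It read AKP 5 at 4.21 and AKP 11 at 3.23, so the probe sets disagreed on those lines.

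Type V collagen starts fibrils and sets their width. All 3 of its chains were highest in AP 1 and next highest in AKP 1, and differed in the other lines. Col5a1 read 12.94, 11.55 and 12.18 in AP 1 to AP 3, and in AKP lines 5.36 in AKP 7 at the lowest, 10.34 at the median and 12.67 in AKP 1 at the highest. It was thus present in nearly all lines, with AKP 7 far below the rest. The difference was -2.02 ± 1.05 (limma adjusted p = 0.359), and 10 of 12 AKP lines were below all AP lines. Its partner Col5a2 read 15.73 in AP 1, 3.00 in AP 2 and 2.38 in AP 3, with 14.53 in AKP 1, 5.34 in AKP 8 and at most 3.30 in the other AKP lines. Only AP 1 and AKP 1 were high. The difference of -2.94 ± 2.66 (limma adjusted p = 0.647) became 0.46 ± 0.55 without these 2 lines (limma adjusted p = 0.693). Col5a3, the third type V chain, reached 8 only in AP 1, at 8.18, followed by AKP 1 at 7.69. Col11a1, a fibrillar chain of cartilage and of many tumour stromas, reached 8 only in AKP 1, at 9.08, and did not pass 4.60 elsewhere. Col2a1 and Col11a2, cartilage chains, stayed below 3 in all lines.

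**Figure D3:**
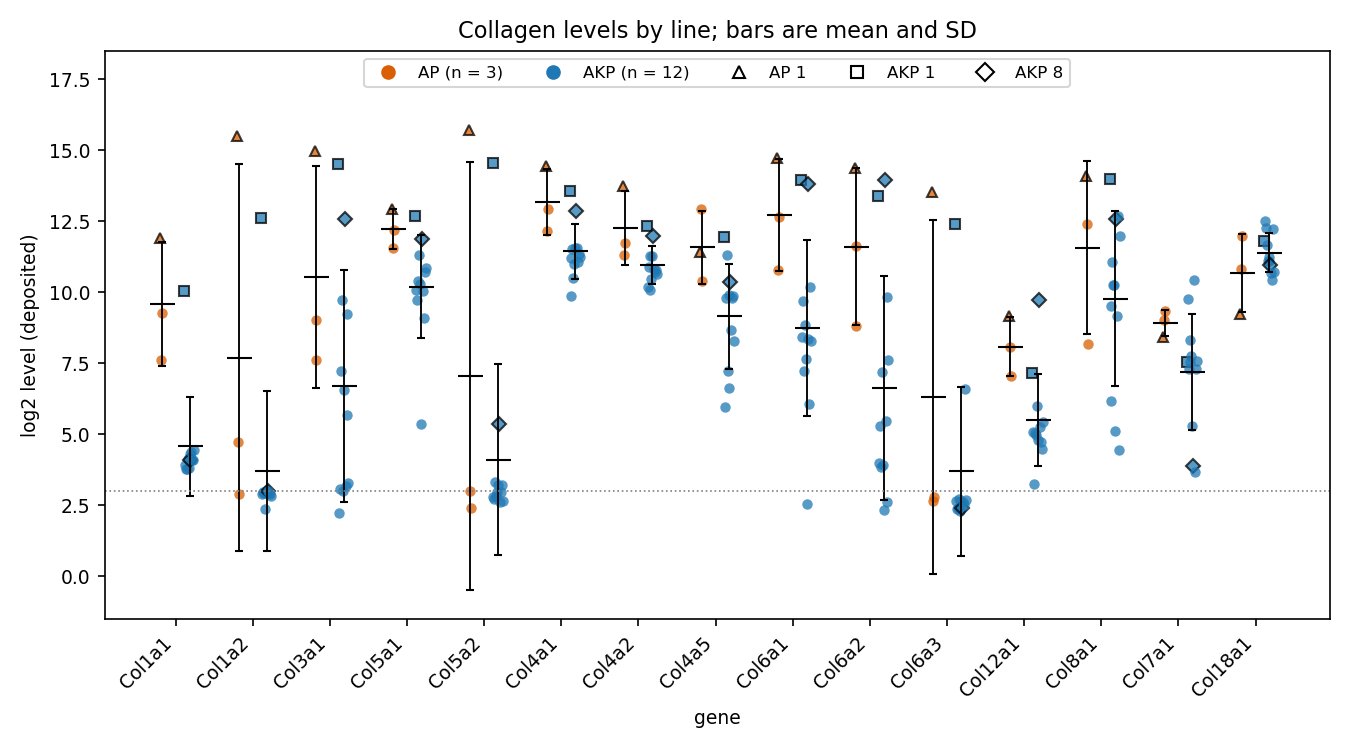
Log2 level (vertical axis) of 15 collagen genes (horizontal axis) in each AP line (orange) and AKP line (blue), with the mean and SD of each group in black, the floor of 3 dotted, and AP 1, AKP 1 and AKP 8 drawn as triangles, squares and diamonds. For Col1a2, Col5a2 and Col6a3 the high points are AP 1 and AKP 1; for Col1a1 the remaining 11 AKP lines lie at or below 4.43, under all AP lines.

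Type IV collagen was at 8 or more in every line through Col4a1 and Col4a2. All 6 genes had a lower mean in AKP lines, none was called, and the median difference was -1.17 (-1.15 without AP 1 and AKP 1). Col4a1 and Col4a2 encode the chains of the common type IV trimer and are known to share a promoter region, from which they are read in opposite directions. Their windows are printed because the genes moved together across lines. In RefSeq on GRCm38.p6 the Col4a1 window is chr8:11312777-11313076, minus strand, and the Col4a2 window is chr8:11312555-11312854, plus strand. Capitals mark the same motifs as above.
Col4a1: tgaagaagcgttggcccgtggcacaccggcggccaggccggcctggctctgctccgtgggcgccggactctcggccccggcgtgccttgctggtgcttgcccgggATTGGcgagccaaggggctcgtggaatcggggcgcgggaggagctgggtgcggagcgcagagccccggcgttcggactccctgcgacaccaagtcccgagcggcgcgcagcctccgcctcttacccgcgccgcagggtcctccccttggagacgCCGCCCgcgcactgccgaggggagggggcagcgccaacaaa
Col4a2: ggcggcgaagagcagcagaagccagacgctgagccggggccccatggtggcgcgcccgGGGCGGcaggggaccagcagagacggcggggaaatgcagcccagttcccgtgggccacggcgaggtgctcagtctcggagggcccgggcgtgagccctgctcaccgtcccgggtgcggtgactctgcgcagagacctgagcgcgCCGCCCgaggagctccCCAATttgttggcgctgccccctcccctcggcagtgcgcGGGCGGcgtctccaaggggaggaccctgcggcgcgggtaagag
The windows overlapped by 78 bases, with the annotated starts 21 bases apart on opposite strands. The Col4a1 start has the higher coordinate, so the annotated transcripts overlap between the starts and leave no gap. Each window held CCAAT once on either strand, Col4a1 held GGGCGG once and Col4a2 3 times, and 1 GGGCGG match lay in the stretch shared by the windows. No motif overlapped another in these windows, and neither held TATAAA.

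Col4a1 read 14.43, 12.15 and 12.92 in AP 1 to AP 3. In AKP lines the lowest value was 9.86, the median 11.30 and the highest 13.58, in AKP 1. It was below all AP lines in 10 of 12 AKP lines, the exceptions being AKP 1 and AKP 8. The difference was -1.73 ± 0.63 (limma adjusted p = 0.189; exact permutation p = 0.0352). A second probe set of Col4a1 read 13.64, 10.26 and 11.04 in AP 1 to AP 3. It placed 7 of 12 AKP lines below all AP lines, with a difference of -1.34 ± 0.67 (limma adjusted p = 0.348 over single probe sets). Col4a2 read 13.75, 11.30 and 11.75 in AP lines and 10.08, 10.80 and 12.34 at the lowest, median and highest AKP line. The same exceptions, AKP 1 and AKP 8, lay above the lowest AP line, and the difference was -1.31 ± 0.50 (limma adjusted p = 0.209). Without AP 1 and AKP 1 the difference of Col4a2 was -0.70 ± 0.39 (limma adjusted p = 0.371). Over the 15 lines the chains followed each other closely, with Pearson r = 0.962 and Spearman rho = 0.943. Both had a permutation p of 2e-05, the smallest that 100000 resamples can give, and the same value after Benjamini-Hochberg adjustment over the 2 pairs tested. Without AP 1 and AKP 1, the lines farthest from the median, r was 0.939.

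Col4a5 encodes a chain of the more restricted basement membranes. It read 11.42, 12.93 and 10.39 in AP 1 to AP 3, against 5.96, 9.79 and 11.94 at the lowest, median and highest AKP line. The groups overlapped in AKP 1 and AKP 4, and 10 of 12 AKP lines were below all AP lines. The difference was -2.44 ± 1.10 (limma adjusted p = 0.284; exact permutation p = 0.0308). Its partner Col4a6 stayed below 6 in all lines, with the highest value, 5.71, in AKP 1. Col4a3 and Col4a4 lie side by side in the genome and encode the chains that join Col4a5 in kidney and lung. Col4a3 was clear of the floor only in AP 2 at 6.54 and AKP 9 at 5.43, with at most 2.70 elsewhere. Col4a4 was also highest in AP 2, at 5.31, and 2 further probe sets read it at 8.39 and 8.44 there, with AKP 9 next at 5.83 and 3.64. Over all lines the difference of Col4a4 was -0.88 ± 0.30 and was not called (limma adjusted p = 0.155). Apart from AP 2, no line passed 3.85 in the probe set used. Without AP 3, limma called Col4a4 lower in AKP lines at -1.36 ± 0.27 (adjusted p = 0.0323), with AP 1 and AP 2 alone standing for AP.

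**Figure D4:**
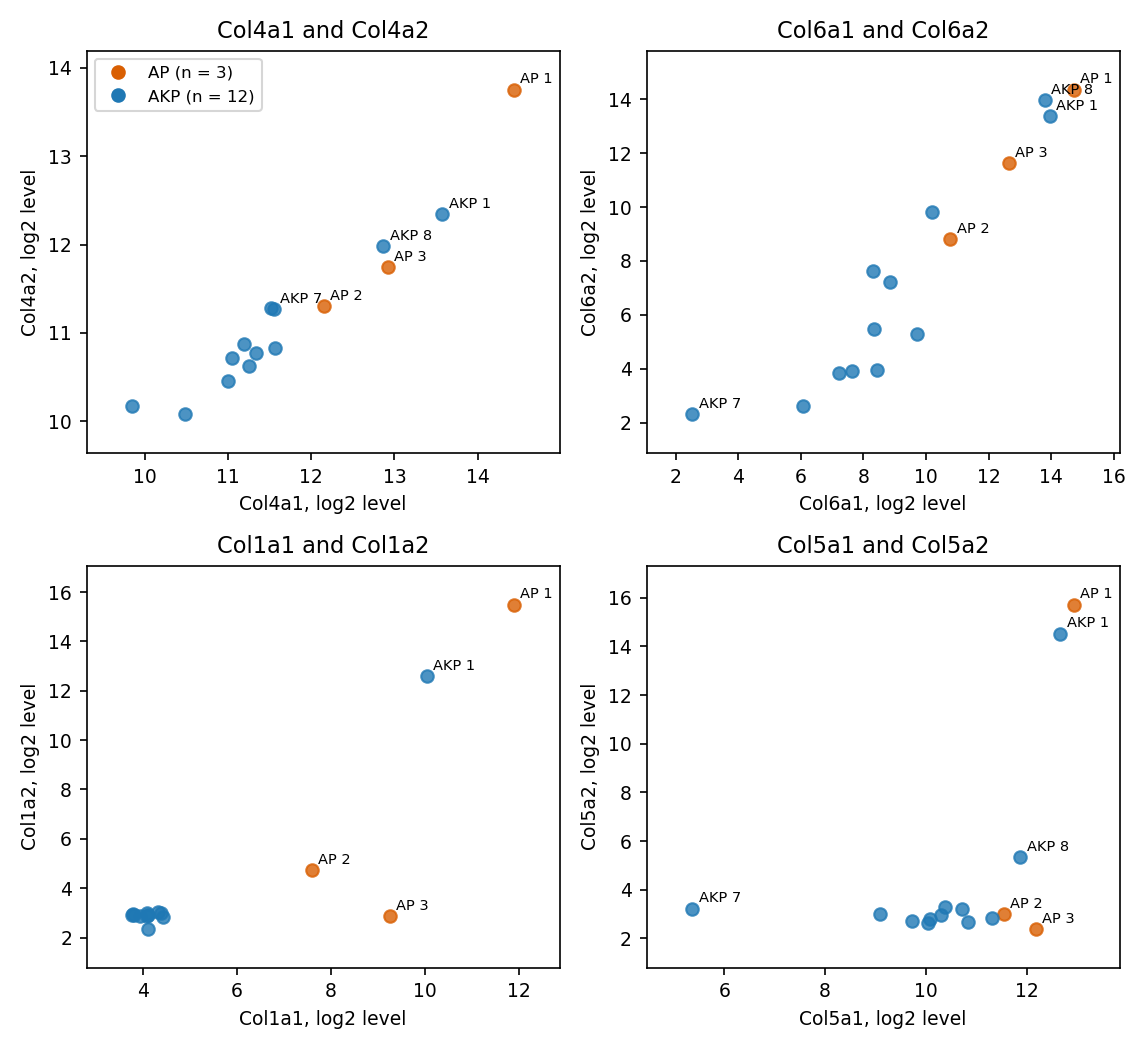
Log2 levels of chains that join in one collagen molecule, 1 point per line, AP in orange and AKP in blue, each axis 1 chain. Col4a1 with Col4a2 (r = 0.962) and Col6a1 with Col6a2 (r = 0.932) run along a line, while Col1a2 and Col5a2 are high only in AP 1 and AKP 1.

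Type VI collagen forms microfilaments around many cells, including adipocytes and muscle. The class held 5 measured genes with a median difference of -2.62 (0.02 without AP 1 and AKP 1), none of them called. The median of 0.02 is the value of Col6a5, which did not pass 3.11 in any line. Without AP 1 and AKP 1 the differences were -3.44 ± 1.96 for Col6a1, -4.22 ± 2.49 for Col6a2 and 0.18 ± 0.86 for Col6a3 (limma adjusted p = 0.384, 0.401 and 0.928). Col6a1 read 14.72, 10.78 and 12.65 in AP 1 to AP 3, and 2.53 in AKP 7, 8.38 at the AKP median and 13.97 in AKP 1. AKP 1 and AKP 8 lay among the AP lines and the other 10 AKP lines below them. The difference was -3.96 ± 1.84 (limma adjusted p = 0.30). Col6a2, its neighbour in the genome, read 14.35, 8.81 and 11.63 in AP lines, and 2.32 in AKP 7, 5.37 at the AKP median and 13.96 in AKP 8. AKP 1, AKP 8 and AKP 11 lay among the AP lines and the other 9 AKP lines below them. Its difference was -4.98 ± 2.36 (limma adjusted p = 0.311). Col6a1 and Col6a2 followed each other over the 15 lines with r = 0.932 and rho = 0.939, each with a permutation p of 2e-05, and r was 0.950 without AP 1 and AKP 7. Col6a3, the chain that completes the usual trimer, did not follow them. It read 13.51 in AP 1 and 12.41 in AKP 1, 6.58 in AKP 11, and at most 2.78 in the other lines. Of 9 pairs of partner chains considered, these 2 were tested. The other 7 fell into separate clusters of lines or, outside them, did not reach 8 in both genes. The lines of a pair share an array, so a difference in array scale enters both axes, and with arrays centred r was 0.957 and 0.931.

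Among the fibril-associated collagens, 3 of 9 reached 8 and none was called. Col12a1, which coats type I fibrils and is common in tumour stroma, read 9.14, 8.06 and 7.04 in AP 1 to AP 3. In AKP lines it read 3.24, 5.06 and 9.72 at the lowest, median and highest line, the last being AKP 8, followed by AKP 1 at 7.16. The other 10 AKP lines were below all AP lines, and the difference was -2.60 ± 0.96 (limma adjusted p = 0.197). Without AKP 8 alone Col12a1 was called, at -2.98 ± 0.61 (limma adjusted p = 0.0232). A second probe set gave 11.83, 10.71 and 8.38 in AP lines, 12.46 in AKP 8 and 9.35 in AKP 1, with at most 5.35 elsewhere, and a difference of -5.76 ± 1.85 (limma adjusted p = 0.145 over single probe sets). Col14a1, a relative of Col12a1, was highest in AKP 8 at 12.09, followed by AKP 10 at 6.82 and AKP 3 at 6.06, and did not pass 2.89 in AP lines. The difference was 1.74 ± 1.61 (limma adjusted p = 0.657). Another probe set of Col14a1 also had AKP 8 highest, at 10.56. It read AKP 10 at 3.61 and AKP 3 at 3.38, beside 3.45, 2.38 and 3.29 in AP 1 to AP 3. Its difference was 0.63 ± 1.28 (limma adjusted p = 0.854 over single probe sets). Col16a1 reached 8 only in AP 1 at 9.71 and AKP 1 at 10.08.

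The remaining classes held single genes of wide spread. Col8a1, a short chain collagen of vessel walls and of the membrane beneath corneal endothelium, read 14.09, 12.41 and 8.17 in AP 1 to AP 3, and 4.44, 10.25 and 13.98 at the lowest, median and highest AKP line. The groups overlapped, although 3 of 12 AKP lines were below all AP lines. The difference was -1.79 ± 1.92 (limma adjusted p = 0.704). It was -0.91 ± 2.16 without AP 1 and AKP 1, and leaving out single lines moved it between -3.48 (without AP 3) and -0.53 (without AP 1). Col10a1, the collagen of hypertrophic cartilage, read 9.75 in AKP 7 and at most 2.20 in all other lines. Col23a1, a transmembrane collagen, read 10.75 in AP 2 and 12.49 in AKP 8, and at most 5.53 elsewhere. Col7a1, the anchoring fibril collagen made mainly by keratinocytes and fibroblasts, read 8.40, 9.03 and 9.33 in AP lines against 3.66, 7.55 and 10.42 at the lowest, median and highest AKP line. AKP 10 and AKP 8 were lowest, at 3.66 and 3.88, and the difference was -1.73 ± 1.18 (limma adjusted p = 0.512). Col18a1, the basement membrane collagen whose end fragment is endostatin, had a higher mean in AKP lines. It read 9.23, 10.80 and 11.98 in AP lines and 10.43, 11.17 and 12.50 at the lowest, median and highest AKP line. The difference of 0.71 ± 0.52 (limma adjusted p = 0.543) was -0.04 ± 0.53 without AP 1 and AKP 1.

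The authors' deposited table compares the genotypes and lists 501 entries, 3 of them collagen genes. In the authors' deposited table Col1a1 has a fold change of -138 and a step-up adjusted p of 0.00791. The authors' deposited table gives Col12a1 a fold of -131 (adjusted p = 0.000534) and Col4a1 a fold of -4.24 (adjusted p = 0.0395). Its group means for these 3 genes were matched by 1 probe set each when AKP 1 and AKP 8 were left out of the AKP mean. With the same 10 AKP lines, limma called 4 of 42 collagen genes, against 4% of all genes. All 4 were lower in AKP, against 2.14%, and none was higher, against 1.86%. They were Col1a1 at -5.51 ± 0.60 (limma adjusted p = 0.000455), Col12a1 at -3.19 ± 0.50 (adjusted p = 0.00521), Col4a1 at -2.09 ± 0.44 (adjusted p = 0.0235) and Col6a2 at -6.40 ± 1.55 (adjusted p = 0.0419). The probe sets matched to the deposited means gave -7.10 ± 1.07 for Col1a1 (limma adjusted p = 0.00426) and -7.03 ± 0.69 for Col12a1 (adjusted p = 0.000205). Second probe sets of Col4a1 and Col6a2 were not called with these 10 AKP lines. They gave -1.637 ± 0.583 and -4.933 ± 1.345 (limma adjusted p = 0.160 and 0.0678 over single probe sets). With AP 1 also left out, limma called Col1a1 and Col12a1, 2 of 42 against 3.56% of all genes, both lower in AKP (2.17% of all genes) and none higher (1.39%). No source used here says why lines were left out of the deposited comparison.

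Proteins that fold, modify and trim collagen were examined as a list of 35, of which 31 were measured. None was called in either direction by limma, against 1.1% of all genes lower and 0.792% higher. At an unadjusted p under 0.05, 10 were lower and 0 higher, against 9.25% and 7.27% of all genes. The median difference was -0.90 against 0.01 over all genes, and -0.54 against 0.04 without AP 1 and AKP 1. The lowest p values belonged to Ppib, the prolyl isomerase cyclophilin B, P4hb, a subunit of prolyl hydroxylase, Mia3, a receptor that loads collagen into transport vesicles, and Bmp1, which trims procollagen. Ppib read 14.74, 14.76 and 15.06 in AP lines, and all 12 AKP lines were lower, with a difference of -0.60 ± 0.15 (limma adjusted p = 0.0529). Bmp1 read 12.26, 9.72 and 10.57 in AP lines and was lower by 2.14 ± 0.60 on average in AKP lines (limma adjusted p = 0.0876). Without AKP 1 and AKP 8, limma called 5 of the list lower, namely P4hb, Plod3, Crtap, Ppib and Bmp1, against 2.14% of all genes, and without AP 1 and AKP 1 it called 0, against 1.83% of all genes lower in AKP. Serpinh1, the collagen chaperone HSP47, read 14.45, 8.43 and 5.59 in AP lines, and among AKP lines was highest in AKP 1 at 14.55, AKP 10 at 11.97 and AKP 8 at 11.81.

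Of 5 basement membrane partners none was called, with 2 lower and 0 higher at an unadjusted p under 0.05 in limma, against the same 9.25% and 7.27% of all genes. Sparc, a collagen-binding protein, read 15.42, 13.24 and 13.75 in AP lines, 14.53 in AKP 1 and at most 11.30 in the other AKP lines, a difference of -6.87 ± 1.98 (limma adjusted p = 0.0978). Without AKP 1 and AKP 8 Sparc was called at -7.94 ± 1.41 (limma adjusted p = 0.0105). Of 9 measured collagen receptors none was called, with 1 lower and 0 higher at that unadjusted p. Ddr2, a fibrillar collagen receptor of mesenchymal cells, read 10.41 in AP 1 and 9.04 in AKP 1 and at most 4.95 elsewhere. Of 10 measured transcription factors known to act on collagen genes or matrix programmes, limma called 1 higher, against 0.792% of all genes, and 0 lower, against 1.1%. At an unadjusted p under 0.05, 3 were higher and 0 lower. The called gene was Tead4, a partner of YAP, at 5.25, 3.72 and 3.08 in AP lines and 3.33 ± 0.69 higher in AKP lines (limma adjusted p = 0.028), with AKP 8 at 4.35 among the AP lines.

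Markers of other cell types were read in the same lines. The median level of 17 fibroblast and smooth muscle markers was 14.11, 10.66 and 8.65 in AP 1 to AP 3. It was 12.06 in AKP 1, 9.92 in AKP 8 and between 3.87 and 6.76 in the other AKP lines. Summed over the 17, AP lines had 144 to 203, against 110 to 177 for AKP lines, and 9 to 13 of 17 reached 8 in AP lines against 5 to 12 in AKP lines. Of the list, Lum was called lower by limma, by 0.54 ± 0.10 (adjusted p = 0.019), against 1.1% of all genes, and within the floor, since it did not pass 3.02 in any line. The call of Lum was lost without AP 1 and AKP 1 (limma adjusted p = 0.0523) and with arrays centred (limma adjusted p = 0.152). Postn, a matrix protein of activated fibroblasts, read 15.84, 11.42 and 9.85 in AP lines and 14.25 in AKP 1, and was at or below 7.14 in the other AKP lines, a difference of -7.71 ± 2.00 (limma adjusted p = 0.0676). Postn was called without AP 1 and AKP 1, at -6.84 ± 0.90 (limma adjusted p = 0.00144), and without AKP 1 and AKP 8, at -8.91 ± 0.89 (limma adjusted p = 0.000225). Other markers of the list had another order of lines. Dcn, the fibril-binding proteoglycan decorin, was highest in AKP 7 at 14.65, the line with fewest collagen genes at 8, and read 7.77 in AP 1 and 7.68 in AKP 1. S100a4, a calcium-binding protein of motile cells, was highest in AP 1 at 16.22 and lowest in AKP 1 at 10.23. Vim, the intermediate filament vimentin, was at 14.14 or more in all lines. Its difference was 0.67 ± 0.29 (limma adjusted p = 0.26), and it was called higher in AKP lines without AP 1 and AKP 1, at 1.18 ± 0.24 (limma adjusted p = 0.0207).

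Of 13 epithelial markers, 1 reached 8 in AP 1, 4 in AKP 1, 8 in AP 2 and 6 in AP 3. The marker that did so in AP 1 was Epcam, an adhesion protein of epithelia, which read 9.82 there, the highest of all lines, and 9.31 in AKP 1. Cdh1, the cell adhesion protein E-cadherin, read 3.70 in AP 1 and 5.54 in AKP 1, and 11.32 and 9.77 in AP 2 and AP 3. Krt8, a keratin of simple epithelia, read 2.46 in AP 1, 9.49 in AKP 1, and 12.51 and 13.36 in AP 2 and AP 3. AP 1 was the lowest line for both. The median of the 13 epithelial markers was 2.58, 9.46 and 6.28 for AP 1 to AP 3. Over AKP lines it ran from 3.05, the value of AKP 1, to 12.05. The sum of the 13 was 47.6 to 111.7 over AP lines, against 65.7 to 132.0 over AKP lines, with 1 to 8 of 13 at 8 or more in AP lines and 3 to 10 in AKP lines. AKP 2 and AKP 10, with medians of 4.31 and 3.90, had few collagen genes at 8 as well, 7 and 6. No endothelial marker of 5 reached 8 in any line. The 5 together summed to 15.8 to 22.1 in AP lines, and to 14.2 to 17.7 in AKP lines. Of 4 measured haematopoietic markers 2 reached 8 in AP 1 and 1, Cd14, in each other line, while Ptprc, the marker of all leukocytes, did not pass 3.10. The sum of the 4 lay between 18.6 and 23.6 for AP lines and between 17.3 and 19.7 for AKP lines. Of 4 chondrocyte markers at most 1 reached 8 in a line, with sums of 13.9 to 17.1 for AP and 12.99 to 20.2 for AKP. Whether the mix of cells in a line has a part in the collagen differences was not tested.

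**Figure D5:**
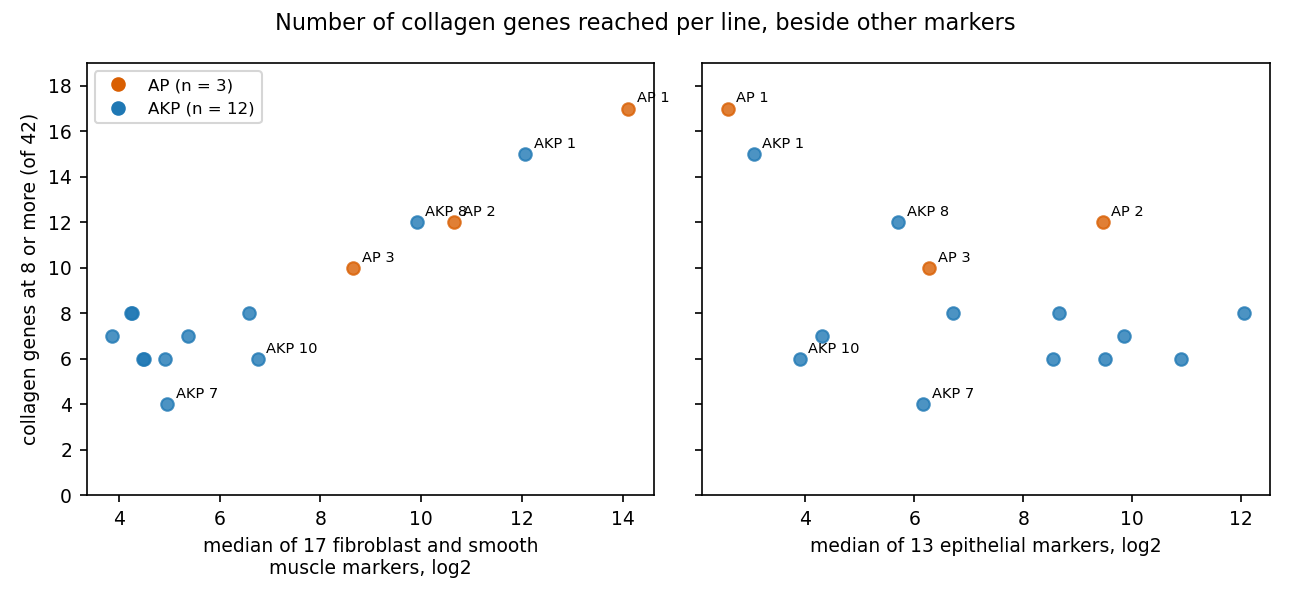
Number of collagen genes at 8 or more (vertical axis, of 42) in each line against the median log2 level of 17 fibroblast and smooth muscle markers (left) and of 13 epithelial markers (right), AP in orange and AKP in blue. AP 1 and AKP 1, with 17 and 15 collagen genes, lie at the top of the left panel's marker range and at the low end of the right.

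The sex label allows a further comparison. With the genotype as a covariate, limma called 0 collagen genes between lines labelled female and male, against 0% of all genes. At an unadjusted p under 0.05 it gave 0 collagen genes, against 3.16% of all genes. In the test of whether the genotype difference depends on the sex label, limma called 1 collagen gene, Col22a1, against 2.01% of all genes. Col22a1, a collagen of tissue junctions, read 5.91 in AP 3, the only AP line labelled female, and 2.73 to 2.94 in all other lines, so that the value rests on 1 line.

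AKP 6, the line labelled adenoma, was set against the 11 AKP lines labelled tumour without a test. No collagen gene lay outside their range by 1 or more, against 0.165% of all genes above it and 0.0605% below it. The adenoma line was inside the range for 39 collagen genes, above it for 1 and below it for 2. Without the margin of 1, the shares over all genes were not counted, so these counts have no background beside them. The gene above the range was Col6a4, at 4.30 against a highest tumour line of 4.00.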

How the data were processed

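Per the labels' protocols, total RNA from 15 cultured mouse lines went onto Affymetrix expression arrays, 1 array for each. The deposited value table holds log2 expression per probe set. How it was background-corrected, summarised and scaled is not stated in what was used here. A further table the authors deposited compares AKP with AP. Per the file headers it gives a raw p-value and a step-up adjusted one, a t score, group means on the log2 scale, the ratio of the groups and a fold change with a sign.

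Of 45101 probe sets, 64 controls were left out. By the platform's annotation, 34945 of the rest had 1 gene, 932 had several and 9160 had none. RefSeq held the Entrez identifier of 34741. Each of 18193 genes was read through its brightest probe set. Of 27 collagen genes with several probe sets, all had the same sign of difference in 22, and in the other 5 no probe set of opposite sign reached 8. Values were used as deposited, with no filter. No depth applies to arrays, and their number limits the precision.

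Groups came from the labels. Each comparison was fitted over all genes with lmFit and eBayes of limma 3.58.1 (R 4.3.3). Two-sided p-values were adjusted by Benjamini and Hochberg's method, and 0.05 was the threshold. Female against male had genotype as a covariate, and a further fit had the interaction of genotype and sex label. The fit was checked on simulated data. Partner chains were correlated with 100000 resamples in SciPy 1.17.1. Promoter windows came from RefSeq, GRCm38.p6, with 250 bases before and 50 after the start. They were found for 33 collagen genes.

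The collagen genes, the gene lists and the alternatives were chosen with earlier results of these data known. Named are the 3 marker genes Col1a1, Col1a2 and Col3a1, called genes, the 8 widest over the lines, and bright chains of types IV to VII and XVIII, with the 4 lowest p of each partner list and its called genes. Other collagen genes, Serpinh1, Dcn, S100a4, Vim and the single epithelial and haematopoietic markers were picked once their values had been seen. The replicate numbers of the labels were not used to pair lines, apart from the alternative that takes them as a block.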

Additional observations from a re-analysis of the deposited data

Results flagged for a closer look

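Within the 10 lines labelled female and the 5 labelled male, the highest and the lowest line were checked for a wide gap to the next line, for 17 collagen genes. Of 34 such checks 9 found a line standing apart by Dixon's test. Chance alone gives about 1 in 20 for genes chosen without regard to their values. Here the 17 genes include the 8 with the widest spread over these same lines, so that rate does not apply. The checks also share lines and genes that move together. AKP 1 stood apart among female lines for Col1a2, at 12.60 with the next line at 3.02, for Col5a2, at 14.53 against 5.34, and for Col6a3, at 12.41 against 6.58. AP 1 stood apart among male lines for the same genes, with Col1a2 at 15.49 against 4.72, Col5a2 at 15.73 against 3.30 and Col6a3 at 13.51 against 2.71. AKP 8 stood apart among female lines for Col14a1, at 12.09 against 6.06, and AKP 7 was lowest for Col5a1, at 5.36 with the next line at 9.73. Among male lines AKP 10 was lowest for Col7a1, at 3.66 against 7.54.

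The genotype difference of Col22a1 differed between the sex labels by -3.15 ± 0.10 (female minus male; limma adjusted p = 3.8e-09 for the interaction over 15 lines). The female AP group is 1 line, AP 3, at 5.91, and the value has no replicate there. The causes of these values were not tested.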

How the results depend on the processing

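The count of collagen genes called between AKP and AP lines was 1 and depended on the lines and the fit. It was 0 when genes with a mean under the 60th percentile, Col1a1 among them, were left out, with array weights, with the sex label as a covariate and with the replicate number as a block. Leaving out 1 line gave 0 to 2 collagen genes. Among alternatives chosen after seeing the data, the count was 1 without AP 1 and AKP 1 and 4 without AKP 1 and AKP 8. It was 7 probe sets with single probe sets and without AKP 1 and AKP 8, and 2 without AP 1, AKP 1 and AKP 8. Over all genes the count was 345. It was 575 with single probe sets, 191 at the 60th percentile, 153 with array weights, 0 with the replicate block, 177 to 584 without 1 line, 503 without AP 1 and AKP 1, 728 without AKP 1 and AKP 8, 1252 with single probe sets and without them, and 647 without all 3 lines. Of the 345 genes called in the main fit, 41.7% were higher in AKP lines. Each other setting called its own set of genes. The share higher was 53.5% of 310 with each array centred, 63.9% of 191 at the 60th percentile and 16.3% of 153 with array weights. With the mean over probe sets, Col9a1 was called (-0.24, limma adjusted p = 0.0497) in place of Col1a1 (-5.59, adjusted p = 0.0815), and without AP 3 Col4a4 was called (-1.36, adjusted p = 0.0323).

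Signs turned for 4 genes when AP 1 was left out, alone or with other lines. Leaving out 1 line moved Col18a1 between -0.0056 and 1.37, Col5a2 between -5.26 and 1.41, Col6a3 between -4.46 and 0.98 and Col5a3 between -1.54 and 0.19, the sign turning without AP 1. Without AP 1 and AKP 1 the values were -0.043 for Col18a1, 0.46 for Col5a2 and 0.18 for Col6a3, and without AKP 8 as well -0.0044, 0.24 and 0.23. Of 481 values of named collagen genes under alternatives, 446 kept their direction and their side of the threshold. A further 16 were no longer past it, 9 were newly past it and 10 changed sign. Only Col1a1 was called in the main fit, so for the other genes the same side means staying uncalled. Col1a1 kept its call in 12 alternatives and lost it in 16. The exact permutation p, counted among the alternatives, was not adjusted. Between the sex labels, all genes called stayed at 0 except 1 without AKP 5, and the interaction counted 113 genes with arrays centred against 366. With arrays centred, the adenoma comparison again gave 0 collagen genes outside the range by 1 or more. Under the alternatives r of Col4a1 with Col4a2 ran from 0.939 to 0.985, and r of Col6a1 with Col6a2 from 0.894 to 0.931. Same-numbered lines deviated from their group means with correlations of 0.460, -0.0357 and -0.0593 for numbers 1 to 3. The first is that of AP 1 and AKP 1, which were each other's closest line. Differently numbered lines were not correlated in this way, so whether the replicate numbers pair lines was not settled. The cause of these changes was not tested, apart from fewer lines or genes entering a fit.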

Other observations

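Some collagen genes neighbour each other in the RefSeq order of protein-coding genes, in 7 pairs. Within these pairs, Col3a1 and Col5a2 were both highest in AP 1 (14.98 and 15.73) and next highest in AKP 1 (14.50 and 14.53), but in AP 2 Col3a1 read 9.02 and Col5a2 3.00. Col4a5 and Col4a6 differed more: Col4a5 reached 8 in 12 lines and Col4a6 in none. Col20a1, a fibril-associated collagen, read 6.42 in AKP 2, 6.04 in AKP 3, 5.19 in AKP 1 and 4.85 in AKP 4, with at most 3.63 in the other lines.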
